A study of Rattus norvegicus and Homo sapiens with 12 samples.

Results

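The S100 genes described here encode small calcium-binding proteins, and their messenger RNA was followed in the human prostate cancer cell line DU145 before and after repeated exposure to conditioned medium (CM) from human mesenchymal stem cells (MSCs). The 9 genes, S100A2, S100A4, S100A6, S100A10, S100A11, S100A13, S100A14, S100A16 and S100P, were chosen by name from a table of 60107 human genes, and 7 of them had enough counts to be tested among 14316 genes. S100A14 and S100P fell below the filter on low counts and are given as counts. The rule itself uses no measured value, although the genes were proposed with earlier results of these data known.

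S100 proteins are dimers in which each chain carries a pair of EF-hand loops that bind calcium. Binding usually opens a surface that docks target proteins such as annexins, myosins and ubiquitin ligase adaptors, and several S100 proteins also leave the cell and act on receptors such as AGER (RAGE). Most of the genes sit in a cluster on the long arm of chromosome 1, and in epithelial cancers the family is known for its links to motility, invasion and epithelial differentiation.

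DU145 is an established androgen-independent line grown from a prostate cancer metastasis. F0 was the parental line (3 libraries), and F2 was the line labelled MSC Educated (3 libraries), both grown in DMEM with 10% fetal bovine serum. F2 cells had been exposed to MSC CM for 72 h per round. The sample labels give 2 rounds, whereas the series text gives 3 rounds with 48 h of recovery in complete medium between them. The human MSCs were a purchased product, no library was described as coming from a control medium, and the sources do not say whether the 3 F2 libraries were grown from separate selections. P-values therefore measure the spread between these libraries, which may come from cultures of a single selected line. These are bulk measurements, in which fewer cells making a transcript and less of it per cell cannot be told apart, and exposure to CM and time in culture cannot be told apart either.

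Counts came from 3′ end sequencing (QuantSeq), which reads 1 fragment close to the 3′ end of each transcript, so CPM (counts scaled to a common library size after TMM normalization) compare genes without division by length. Gene counts ranged from 16029876 to 16479239 in F0 and from 15879480 to 16217918 in F2. Mitochondrially encoded genes took 5.86% ± 0.145 of the counts of F0 and 10.4% ± 0.201 of those of F2 (SD, n = 3 each). With these genes left out of the fit the same counts of S100 genes passed, 4 higher and 1 lower, and S100A16 stood at 0.49 and S100A6 at 0.16 on the log2 scale, as with them. Of 8 epithelial markers KRT5 was at 0 and the other 7 were tested, of which 4 were higher in F2 (KRT19, KRT8, EPCAM and KRT18, by 0.67, 0.24, 0.22 and 0.20 on the log2 scale) and 3 lower (edgeR, adjusted p under the threshold). CDH1 (E-cadherin) averaged 13.97 ± 1.79 CPM across F0 and 5.77 ± 0.0914 CPM across F2 and fell by 1.27 on the log2 scale (edgeR, adjusted p = 7.63e-07), and CLDN7 and KRT7 fell by 0.57 and 0.24. The prostate secretory gene KLK2 was at 0 and KLK3 reached at most 1 count. Of 23 MSC markers, 7 were at 0 in all 6 libraries (THY1, SPARC, LUM, POSTN, CXCL12, VCAM1 and TWIST1) and 13 did not exceed 3 counts in any library. Their summed level was 215 to 239 CPM in F0 and 277 to 296 CPM in F2, of which NT5E, also made by many carcinoma cells, was 158 ± 9.48 and 221 ± 10.2 CPM. Of the 7 tested MSC markers, NT5E and NES were higher (log2 fold change 0.49 each) and FN1 and TAGLN lower (-0.52 and -0.31, edgeR, adjusted p = 0.0406 and 0.0250), with a median of -0.31, and COL1A2 had 9, 17 and 11 counts in F0 and 2, 4 and 2 in F2. The part of these marker differences in the S100 values was not tested.

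The loop sequences are shown because the members differ in them. Each line is the 36 coding bases of the second calcium-binding loop on the coding strand, read from the GENCODE 29 transcripts of GRCh38, with the first and last codons in capitals. The loop of S100A2 lies at chr1:153561511-153561546, that of S100A4 at chr1:153543843-153543878 and that of S100A16 at chr1:153607612-153607647, all on the minus strand and within 1 exon.
S100A2: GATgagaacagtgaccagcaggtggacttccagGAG
S100A4: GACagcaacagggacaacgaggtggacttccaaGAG
S100A6: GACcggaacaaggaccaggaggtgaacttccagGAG
S100A10: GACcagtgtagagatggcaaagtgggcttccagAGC
S100A13: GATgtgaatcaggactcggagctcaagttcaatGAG
S100A16: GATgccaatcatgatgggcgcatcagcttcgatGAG
The last of these 12 codons encodes glutamate, a residue that holds the calcium ion, in 7 of the 9 members, and S100A10 and S100A14 are the members without it. S100A10 is known for having lost calcium binding and being locked in the open form. Over the whole coding sequence, the encoded proteins of the 36 pairs shared 25.6% to 60.8% of residues, and the closest pair was S100A2 and S100A4.

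In F2, S100A2, S100A16, S100A13 and S100A6 rose by 1.12-fold to 1.45-fold and S100A4 fell to 0.633 of its F0 level. S100A10 and S100A11, both near 1000 CPM, did not pass the test. Of the 7 tested members, 4 were higher and 1 was lower (edgeR quasi-likelihood test, adjusted p under 0.05), and none changed by 2-fold. Over all tested genes, 18.2% passed, 9.49% higher and 8.67% lower. The 3 F2 libraries lay on one side of the 3 F0 libraries in 6 of the 7 tested members, as in 34% of all tested genes. The share that passed rose with level, from 10.3% of tested genes under 10 CPM to 20.6% at 10 to 100 CPM and 32.6% at or above 100 CPM, and 5 of the 7 tested members had over 100 CPM. The median log2 fold change of the 7 was 0.16, and that of all tested genes was -0.0025. A single value compared between 3 and 3 libraries cannot go below p = 0.1 in a two-sided exact permutation test, so the calls rest on the fit over all genes.

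**Figure D1:**
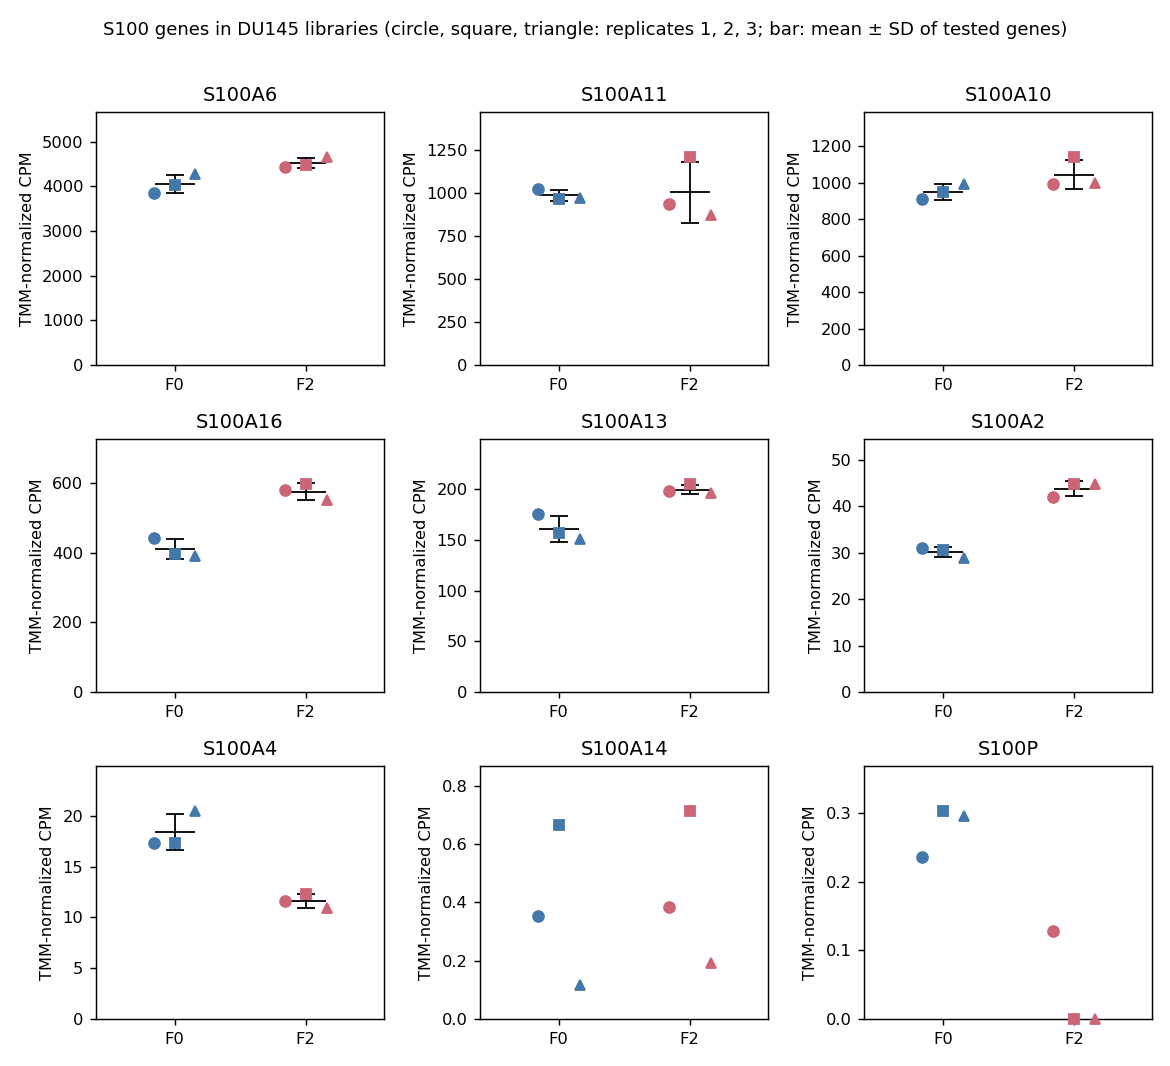
TMM-normalized CPM of the 9 S100 genes (linear axes from 0, one scale per gene) in the 3 F0 and 3 F2 libraries of DU145, with the mean and SD of the 7 tested genes as bars. F2 lies wholly above F0 for S100A2, S100A13 and S100A16, and narrowly so for S100A6 and S100A10. It lies wholly below F0 for S100A4 and, at few counts, for S100P, while the F2 libraries of S100A11 lie on both sides of F0.

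S100A2, a mostly nuclear protein of basal epithelium, had the largest rise. The gene (ENSG00000196754) spans chr1:153561108-153567890 on the minus strand. Its level was 31.1, 30.5 and 28.8 CPM in F0 and 42.0, 44.7 and 44.7 CPM in F2. Every F2 library was above every F0 library, and the gap was larger than the spread within either group. The means were 30.1 ± 1.16 CPM and 43.8 ± 1.58 CPM (SD, n = 3), a log2 fold change of 0.54 with a standard error (SE) of 0.068 (edgeR, adjusted p = 1.34e-05).

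S100A4, known as metastasin or fibroblast-specific protein and a binder of non-muscle myosin, was the member that fell. The gene (ENSG00000196154) spans chr1:153543613-153550136 on the minus strand. Its level was 17.3, 17.4 and 20.4 CPM in F0 and 11.6, 12.3 and 10.95 CPM in F2. The highest F2 library stayed below the lowest F0 library, and F0 replicate 3 stood above the other F0 libraries. The means were 18.4 ± 1.79 CPM and 11.6 ± 0.685 CPM (SD, n = 3), a log2 fold change of -0.66 (SE 0.10, edgeR, adjusted p = 1.61e-04). The annotated gene span of S100A4 shares 2044 bases with S100A3 on the same strand, and S100A3 took 617 counts over the 6 libraries. The S100A4 transcript whose loop is printed above (chr1:153543613-153545802) does not reach S100A3, which starts at 153547329. S100A3 itself was 5.58 ± 0.765 CPM in F0 and 7.18 ± 0.637 CPM in F2, a log2 fold change of 0.36 (edgeR, adjusted p = 0.0984), opposite in sign to that of S100A4.

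The count ratio of S100A2 to S100A4 needs no scaling between libraries. It was 1.79, 1.76 and 1.41 in F0 and 3.61, 3.63 and 4.08 in F2. The lowest F2 ratio was above the highest F0 ratio, and the means were 1.65 ± 0.211 and 3.77 ± 0.268 (SD, n = 3, two-sided exact permutation p = 0.1, the smallest possible). Because each gene alone already separated the groups, in opposite directions, their ratio had to separate them too. The ratio is therefore no further test of either change. The most similar pair of encoded proteins in the set, whose loops are printed above, thus had opposite directions of change in their messenger RNA.

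S100A16 and S100A13 lie near each other at the end of the cluster, with the scarce S100A14 between them. S100A16 (ENSG00000188643, chr1:153606886-153613145, minus strand), a widely expressed member that can pair with S100A14, was 443, 398 and 392 CPM in F0 and 581, 597 and 551 CPM in F2. The groups did not overlap, with the lowest F2 library far above the highest F0 library. The means were 411 ± 28.1 CPM and 576 ± 23.2 CPM (SD, n = 3), a log2 fold change of 0.49 (SE 0.050, edgeR, adjusted p = 8.51e-07).

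S100A13 (ENSG00000189171, chr1:153618787-153631360, minus strand), known for its part in the release of FGF1 and IL1A without a signal peptide, was 175, 156 and 150 CPM in F0 and 198, 205 and 196 CPM in F2. All F2 libraries were again above all F0 libraries, and F0 replicate 1 was the F0 library nearest to them. The means were 161 ± 12.97 CPM and 200 ± 4.58 CPM (SD, n = 3), a log2 fold change of 0.31 (SE 0.054, edgeR, adjusted p = 3.68e-04). A processed transcript within the gene on the same strand took 47 counts over the 6 libraries. The count ratio of S100A16 to S100A13 was 2.53, 2.54 and 2.60 in F0 and 2.93, 2.92 and 2.81 in F2, without overlap.

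S100A6 (calcyclin), which binds the ubiquitin ligase adaptor CACYBP and annexins, was by far the most abundant member and ranked 17 among tested genes. Its gene (ENSG00000197956) spans chr1:153534599-153536244 on the minus strand. The level was 3851, 4038 and 4263 CPM in F0 and 4429, 4478 and 4645 CPM in F2. The groups did not overlap, but F0 replicate 3 came close to F2 replicate 1. The means were 4051 ± 206 CPM and 4517 ± 113 CPM (SD, n = 3), a log2 fold change of 0.16 (SE 0.043, edgeR, adjusted p = 0.0138). This call was lost with library size alone as the scaling (log2 fold change 0.07, edgeR, adjusted p = 0.267) and without F0 replicate 1, F0 replicate 2 or F2 replicate 3 (edgeR, adjusted p = 0.0501, 0.0932 and 0.0811). S100A6 is therefore given as a small difference that depended on scaling and on single libraries.

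S100A10 (p11), which forms a tetramer with annexin A2 at membranes, was 909, 946 and 994 CPM in F0 and 994, 1138 and 1000 CPM in F2. F0 replicate 3 and F2 replicate 1 were level at this rounding, and F2 replicate 2 stood highest. The gene (ENSG00000197747) spans chr1:151982915-151994390 on the minus strand. The means were 950 ± 42.4 CPM and 1044 ± 81.6 CPM (SD, n = 3), a log2 fold change of 0.14 with a 95% interval of 0.03 to 0.24 (edgeR, adjusted p = 0.0734). With the replicate number as a block the value was 0.13 and passed (edgeR, adjusted p = 0.0355), and without F2 replicate 2 it was 0.07 and did not (edgeR, adjusted p = 0.225).

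S100A11 (calgizzarin), a partner of annexin A1, was 1023, 962 and 973 CPM in F0 and 933, 1206 and 874 CPM in F2. F2 replicate 2 was above every F0 library and the other F2 libraries were below them all, so the groups overlapped. The gene (ENSG00000163191) spans chr1:152032506-152047907 on the minus strand. The means were 986 ± 32.4 CPM and 1004 ± 177 CPM (SD, n = 3), a log2 fold change of 0.03 with a 95% interval of -0.13 to 0.19 (edgeR, adjusted p = 0.859). Without F2 replicate 2 the sign turned and the value passed the test at -0.12 (edgeR, adjusted p = 0.0367). With library size alone as the scaling the value was -0.06 and did not pass (edgeR, adjusted p = 0.603). The direction for this gene thus depended on a single library and on the scaling. F2 replicate 2 differed more from F2 replicates 1 and 3 over all genes (chi-square per degree of freedom 4.25 and 5.92) than these did from each other (2.19), and F0 replicates 1 and 3 differed as widely (5.35).

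**Figure D2:**
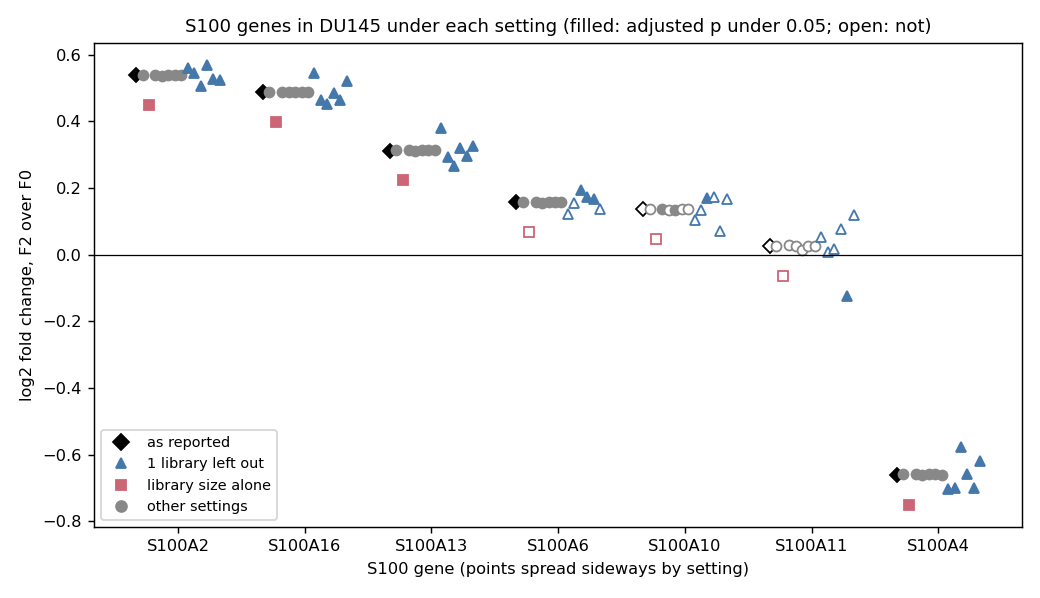
Log2 fold change of the 7 tested S100 genes (F2 over F0) as reported and under 13 other settings, with filled points for an adjusted p under 0.05. S100A2, S100A16, S100A13 and S100A4 keep their side of 0 and are filled throughout, S100A6 and S100A10 are filled in part, and S100A11 lies on both sides of 0.

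S100A14 and S100P were close to the limit of detection. S100A14 (ENSG00000189334, chr1:153614255-153616986, minus strand), known from squamous and glandular epithelia, had 6, 11 and 2 counts in F0 and 6, 11 and 3 counts in F2. The groups overlapped, and the summed counts of 19 and 20 gave a ratio of F2 to F0 of 1.13 (exact 95% interval 0.575 to 2.25).

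S100P (ENSG00000163993, chr4:6693069-6697170, plus strand), a ligand of AGER that also binds ezrin and lies outside the cluster, had 4, 5 and 5 counts in F0 and 2, 0 and 0 counts in F2. All F0 libraries were above all F2 libraries, at 14 and 2 counts in all. The ratio of F2 to F0 was 0.154 with an exact 95% interval of 0.0170 to 0.670, which, like the interval for S100A14, covers counting error only. Fitted without the filter, S100P did not pass (edgeR, adjusted p = 0.177), so a difference in S100P was not detectable with this test at this depth.

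In both populations S100A6 was highest, followed by S100A10 and S100A11, then S100A16, S100A13, S100A2, S100A4, S100A14 and S100P in CPM. S100A10 and S100A11 overlapped in both populations and S100A14 and S100P overlapped in F0, whereas every other pair of neighbours was separated. S100A6 made up 61.3% ± 1.44 of the members' counts in F0 and 61.1% ± 2.61 in F2. The share of S100A16 was 6.23% ± 0.580 in F0 and 7.79% ± 0.274 in F2, without overlap (two-sided exact permutation p = 0.1). Summed, the 9 members held 0.682% ± 0.0216 of the F0 gene counts and 0.717% ± 0.0257 of those of F2 (SD, n = 3), and these groups overlapped (two-sided exact permutation p = 0.2). With the mitochondrially encoded genes left out of the total, the shares were 0.724% ± 0.0240 and 0.801% ± 0.0304 and no longer overlapped (two-sided exact permutation p = 0.1).

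**Figure D3:**
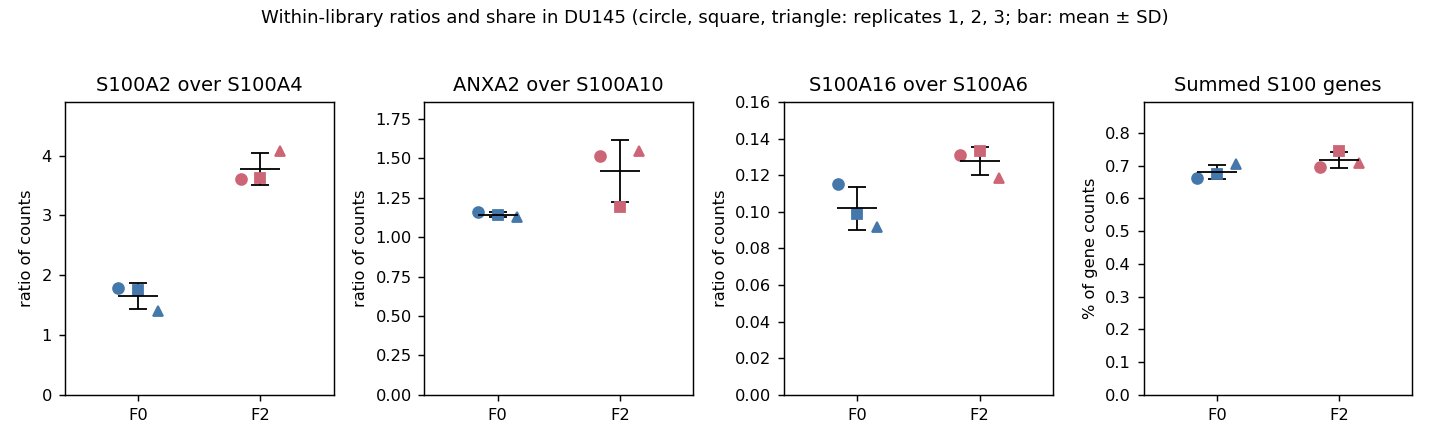
Count ratios within each library and the summed S100 share of gene counts (%), with points for the 3 F0 and 3 F2 libraries of DU145 and bars for the mean and SD. The S100A2 to S100A4 ratio is 1.41 to 1.79 in F0 and 3.61 to 4.08 in F2, while the summed share overlaps between the groups.

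Of 12 further S100 genes, S100A3 was the only one with enough counts to be tested. S100A7, S100A7L2, S100A8, S100A12, S100B, S100G and S100Z were at 0 in all 6 libraries, which allows up to 0.195 CPM for 3 counts in the shallowest library. S100A1, S100A5, S100A7A and S100A9 reached at most 2, 4, 1 and 6 counts. The DU145 profile was thus carried by the broadly expressed members, with the myeloid alarmin S100A8 not detected and its partner S100A9 near the floor.

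All members but S100P lie within 1648 kb of chromosome 1, between the ends of S100A10 and S100A13. Of 3 tested genes of other families in that stretch, 0 passed the test in edgeR or in DESeq2 and 1 had an unadjusted p under 0.05. Their log2 fold changes were 0.78 for TCHH, -0.30 for FLG-AS1 and 0.14 for IVL. TCHH, a structural protein of hair follicles, averaged 1.23 CPM in F0 and 2.12 CPM in F2 and missed the threshold (edgeR, adjusted p = 0.0789). Among all 1428 tested genes of chromosome 1, 140 were higher and 98 lower, or 16.7%.

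The annexins are the membrane-binding partners of S100A10, S100A11 and S100A6. Of 13 annexin genes 9 were tested, and 3 rose (ANXA2, ANXA1 and ANXA3) and 1 fell (ANXA6), with a median log2 fold change of -0.03. ANXA2, the partner of S100A10, was 1052, 1081 and 1118 CPM in F0 and 1507, 1358 and 1547 CPM in F2. All F2 libraries were above all F0 libraries, F2 replicate 2 being the lowest of them, with a log2 fold change of 0.44 (SE 0.048, edgeR, adjusted p = 1.78e-06). The count ratio of ANXA2 to S100A10 was 1.16, 1.14 and 1.13 in F0 and 1.52, 1.19 and 1.55 in F2, so F2 replicate 2 stayed near the F0 values while the other F2 libraries did not. ANXA1, the partner of S100A11, had a log2 fold change of 0.35 (edgeR, adjusted p = 4.75e-05), ANXA3 of 0.29 (adjusted p = 6.67e-04) and ANXA6 of -0.28 (adjusted p = 6.40e-04).

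Of 25 known S100 partners and receptors 21 were tested, of which 6 rose and 2 fell, with a median log2 fold change of 0.07. DLC1, a GTPase-activating protein that S100A10 binds, rose by 0.43 on the log2 scale (edgeR, adjusted p = 2.43e-04). AHNAK, a giant scaffold held by the S100A10 and annexin A2 complex, rose by 0.32 (edgeR, adjusted p = 1.84e-04), from 213 ± 10.6 to 267 ± 16.6 CPM (SD, n = 3). MYH9, the non-muscle myosin heavy chain that S100A4 binds, rose by 0.22 (edgeR, adjusted p = 5.48e-04) while S100A4 fell. IQGAP1, a cytoskeletal scaffold, rose by 0.24 and the adhesion receptor ALCAM by 0.18 (edgeR, adjusted p = 7.55e-04 and 0.0109).

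FGF1, the growth factor whose release S100A13 takes part in, rose from 14 to 38 counts over 3 libraries each, a log2 fold change of 1.52 (edgeR, adjusted p = 0.0480). It passed in 3 of 12 other settings, so this call rests on few counts. EZR (ezrin), which S100P binds and which links membranes to actin, fell by 0.19 and the co-chaperone STIP1 by 0.27 (edgeR, adjusted p = 0.00526 and 0.0103). CACYBP, the partner of S100A6, had a log2 fold change of 0.12 and did not pass (edgeR, adjusted p = 0.0697). AGER was scarce, at 2.66 to 2.89 CPM in F0 and 3.06 to 4.02 CPM in F2 (edgeR, adjusted p = 0.159), and IL1A, TLR4 and TRPV6 were at 0.

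**Figure D4:**
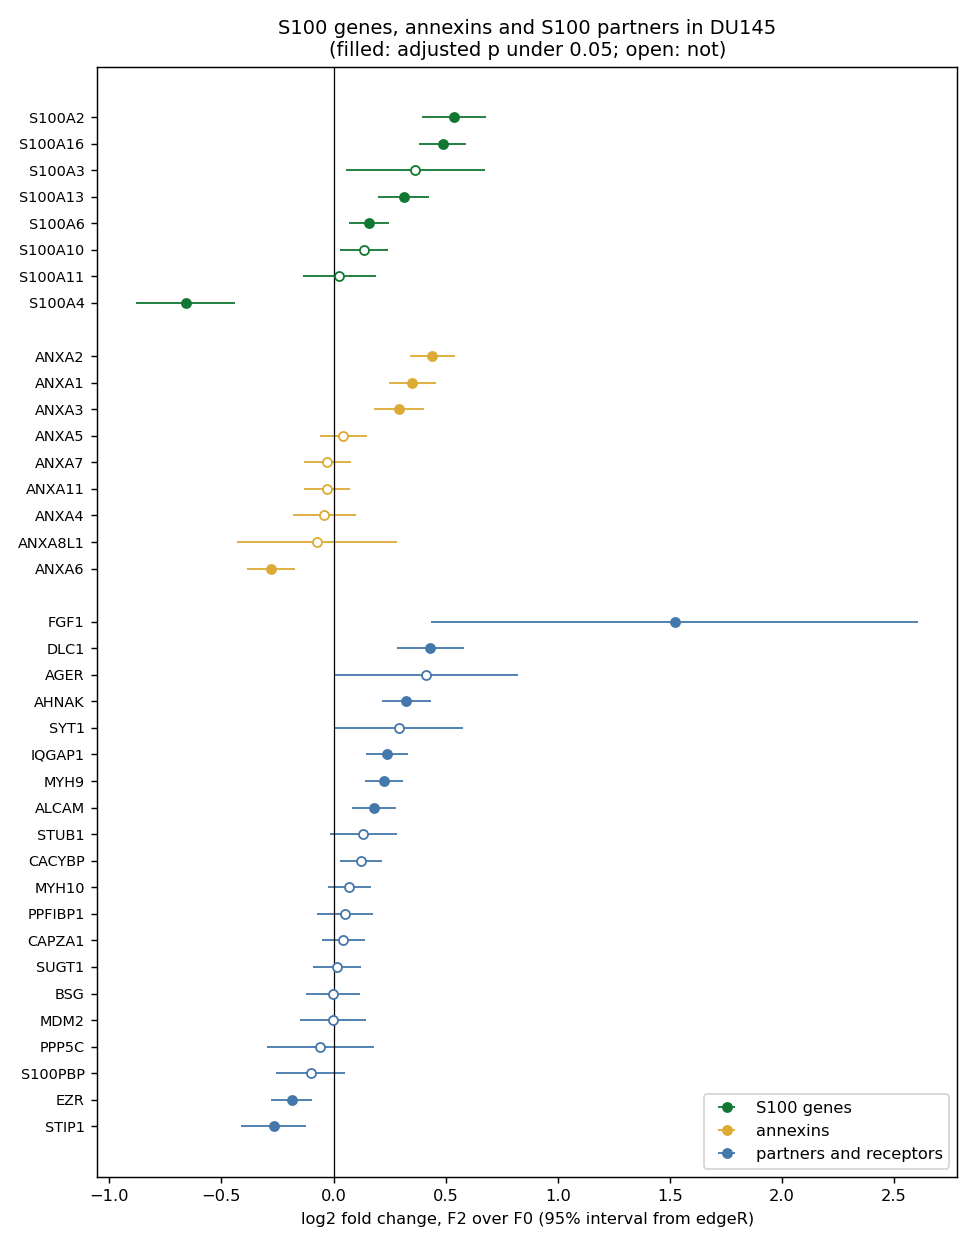
Log2 fold change (F2 over F0) with its 95% interval from edgeR for the tested S100 genes, annexins and S100 partners and receptors reported here, filled where the adjusted p was under 0.05. S100A4 is the lowest of all genes shown at -0.66, FGF1 has the widest interval, and ANXA2, ANXA1 and ANXA3 lie to the right of 0.

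Of 50 further EF-hand genes 43 were tested, and 6 rose and 8 fell, with a median log2 fold change of 0.02. LCP1 (L-plastin), an actin bundler, had the largest value at 2.15 (SE 0.41, edgeR, adjusted p = 0.00100), from 0.298 to 1.35 CPM. Its size rests on few counts, 15 in F0 and 63 in F2 over 3 libraries each, although LCP1 passed in 12 of 12 other settings. CAPN2, a calpain protease, rose by 0.41, and MYL9, a myosin regulatory light chain, fell by 0.48 (edgeR, adjusted p = 1.64e-06 and 1.86e-07). TESC, CIB2, CETN3 and SRI fell by 0.54, 0.40, 0.32 and 0.31, and MYL12A rose by 0.23 (all edgeR, adjusted p under the threshold). Over 13 other settings, ALCAM and CIB2 passed in 10, STIP1 in 11 and MYL12A in 12. The annexin, partner and EF-hand lists had 44.4%, 38.1% and 32.6% of tested genes past the threshold, beside 18.2% of all tested genes and 32.6% of those at or above 100 CPM, so nothing particular to these lists is read from the shares.

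The genes whose profile over the 6 libraries lay nearest to S100A2, among 8649 genes with a mean of at least 10 CPM, were SNHG12, NAV2 and MT-RNR2 (Euclidean distance of centred log2 CPM 0.0774, 0.0851 and 0.1004). MT-RNR2 is a mitochondrially encoded ribosomal RNA, and the mitochondrial share is given above. Nearest to S100A4 were IFITM2, PNRC1 and TGFB2 (distance 0.149, 0.161 and 0.175). The profiles contain the difference between F0 and F2, so genes with a like log2 fold change lie near by construction. That of the S100A2 neighbours was 0.59, 0.62 and 0.48, and that of the S100A4 neighbours -0.65, -0.65 and -0.61. Shared regulation was not tested.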

How the data were processed

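Raw counts per human gene were deposited for 6 DU145 libraries, and per the submitters' processing notes the authors used STAR 2.5.2a and HTSeq 0.6.0 with GRCh38. The gene annotation is not given in the sources used here. The rat table was not used, because the reference tables paired none of its identifiers with S100 genes. Positions came from GENCODE 29 and symbols from a separate reference list of gene names (56104 of 60107 identifiers had a symbol). Genes were filtered with filterByExpr (minimum count 10) and tested with edgeR 4.0.16 (TMM, quasi-likelihood F-test, R 4.3.3), with Benjamini-Hochberg adjustment over 14316 genes and a threshold of 0.05. Values are TMM-normalized CPM. DESeq2 1.42.0, other scalings, other filters, a replicate block and leaving out each library were the alternatives. On simulated counts for this comparison (14150 genes) the test recovered 65.7% of genes changed by 0.5 on the log2 scale and 87.7% changed by 1, and 7.34% of calls were false. The simulation changed a far smaller share of genes than the 18.2% called in the data, so these rates need not hold for the data. Reads aligning to several places were not counted, and over the last 300 transcript bases only S100A11 had another annotated gene alike over 101 bases at 95% identity (AC006483.1, 1 count). Strand use in counting is not given in the sources used here, so antisense partners cannot be told apart.

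The members and gene lists were chosen with earlier results of these data known. All members and every other S100 gene with a count were named, with, per list, at most 8 genes past the threshold by absolute log2 fold change, and ANXA2, AHNAK, CACYBP, EZR and AGER, among others, whatever their value. A few items are not reported here. Same-numbered F0 and F2 libraries did not deviate together (correlations 0.0559, -0.0174 and 0.0590), so the numbers were not taken as pairs. Within F0 and within F2, no pair of libraries agreed within sampling noise (chi-square per degree of freedom 2.19 to 5.92).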

Additional observations from a re-analysis of the deposited data

How the results depend on the processing

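S100A2, S100A4, S100A13 and S100A16 passed in all 13 other settings (log2 fold change 0.45 to 0.57, -0.75 to -0.58, 0.22 to 0.38 and 0.40 to 0.55), S100A6 in 9, S100A10 in 3 and S100A11 in 1. With each library left out, S100A11 ranged from -0.12 (without F2 replicate 2, reversed and the only setting in which it passed) to 0.12 (without F2 replicate 3), and the cause was not tested. Leaving out each library gave 3 to 5 members higher and 1 to 2 lower, 5 to 8 partners, 0 to 1 genes of other families in the S100 region, and 1671 (without F0 replicate 2) to 2621 genes past the threshold over all, against 2599. With the replicate block, 2867 genes passed and S100A10 and CACYBP gained a call (edgeR, adjusted p = 0.0355 and 0.0465) while FGF1 lost it (0.0573). DESeq2 called 2091 genes. Library size alone called 832 higher and 2805 lower, 22.9% higher against 52.3% with TMM, and moved the median of all genes by -0.090. The difference in the summed S100 share was 0.0355 percentage points of gene counts (0.0212 to 0.0475 with 1 library left out), 0.0766 without mitochondrially encoded genes and 0.0791 of the TMM-scaled size. The number of libraries, 3 a group, limits small differences, and for S100A14, S100P and FGF1 the low counts do.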
